A study of Mus musculus with 6 samples.

Results

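Keratin, desmosome and squamous genes of the mouse endometrium were followed as a set of 66 genes, out of 44788 genes in the count table. The set held every gene whose symbol is Krt followed by digits alone, which gave 47 keratins. It also held 11 genes of the desmosome, 7 genes of the cornified envelope and Trp63, a transcription factor of squamous epithelia. The genes were chosen by symbol, with earlier results of these data known, so the shares set beside them are a description. Of the 66 genes, 30 had enough reads to be tested, 26 more had at least 1 read, and 10 had none in any library.

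The libraries came from ICR mice with adenomyosis, in which tissue of the endometrium, the lining of the uterine cavity, lies within the muscle wall. Newborn females of both groups had swallowed tamoxifen from day 2 to day 5 of life, at a dose of 2.7 µmol/kg. The agonist group (8 mice) was injected 75 days later with Decapetyl (spelled as in the labels), a GnRH agonist, which over days suppresses the pituitary signal to the ovary, at 1.5 µg per 100 g body weight per day from day 3 to day 9 of estrus, and the no-agonist group (8 mice) with solvent alone. All were mated after 4 weeks and sampled in the evening of day 4 of pregnancy, when the tissue was scraped off with a needle. Each group gave 3 libraries, which the labels do not tie to single mice, so the tests below measure the spread between libraries, which may be technical.

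Keratins are the intermediate filament proteins of epithelia. A type I keratin pairs with a type II keratin to form the filament, and cell types differ in the pairs they use. Single-layered epithelia such as the uterine lining use the simple keratins Krt8, Krt18, Krt7 and Krt19. Stratified squamous epithelia, which in the female tract line the vagina and the outer cervix, use Krt5 and Krt14 in the basal layer and other keratins above it. Hair keratins are known from the hair shaft, the nail and papillae of the tongue. Desmosomes are the junctions that tie the keratin filaments of neighbouring cells together, and the cornified envelope is the protein shell that squamous cells build late in their life.

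Library totals ranged from 11720958 to 14104266 counts. The 66 genes took 0.572, 0.520 and 0.417% of the counts in agonist libraries 1 to 3, against 0.769, 1.10 and 0.873% in no-agonist libraries 1 to 3. Agonist library 1 and no-agonist library 2 stood apart in their share of counts on the 18S ribosomal RNA gene, at 1.94 and 3.31%, against 0.254 to 0.369% in the other libraries. No-agonist library 3 stood apart on the first principal component, which held 42.9% of the variance over all genes, at -64.5. Agonist libraries 2 and 3 lay at its other end, at 42.8 and 43.9, and agonist library 1, at -11.1, lay beside no-agonist libraries 1 and 2, at -7.2 and -3.86. The epithelial markers other than keratins, the stromal markers and the smooth muscle markers were all detected in the labelled tissue. Levels are given as CPM, counts scaled to a common library size, and genes are compared with each other only as CPM per kilobase of exon. In these bulk samples fewer cells of a type and less RNA per cell cannot be told apart.

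None of the 66 genes passed edgeR's quasi-likelihood test at an adjusted p under 0.05, and neither did any of the 16581 genes tested (0%). At an unadjusted p under 0.05, 10 of the 30 tested members were lower in the agonist group and 0 were higher, where the shares over all genes tested were 5.09% lower and 4.17% higher. In 11 members all 3 agonist libraries lay below all 3 no-agonist libraries, and in 0 members above them, against 7.61 and 6.94% of all genes tested. Both counts include Krt20, which passed the filter on low counts only through the no-agonist group, where it is high. Krt23, with most of its reads in the agonist group, did not pass that filter, so the filter has a part in the split between lower and higher. The log2 fold change, agonist over no agonist, was below 0 in 23 of the 30 members with a median of -0.39. Over all genes tested 47.8% lay below 0, with a median of 0.018. The 12 epithelial markers other than keratins had 4 lower and 0 higher at an unadjusted p under 0.05, 33.3% as in the members. The groups stood apart in 33.3% of these markers, against 36.7% of the members. Of the 12 markers 9 had a log2 fold change below 0, with a median of -0.29. DESeq2 with its own filter called 8 members lower (1.5% of its 16954 genes) and 1 higher (0.979%), and edgeR's likelihood ratio test called 6 lower (0.989%) and 0 higher (0.627%). With library totals alone as the scaling, the genes at an unadjusted p under 0.05 split into 1192 higher and 520 lower, against 691 and 844 with TMM scaling, and the median over all genes moved to 0.18. Relative to that median, 23 of the 30 members lay below it under either scaling.

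**Figure D1:**
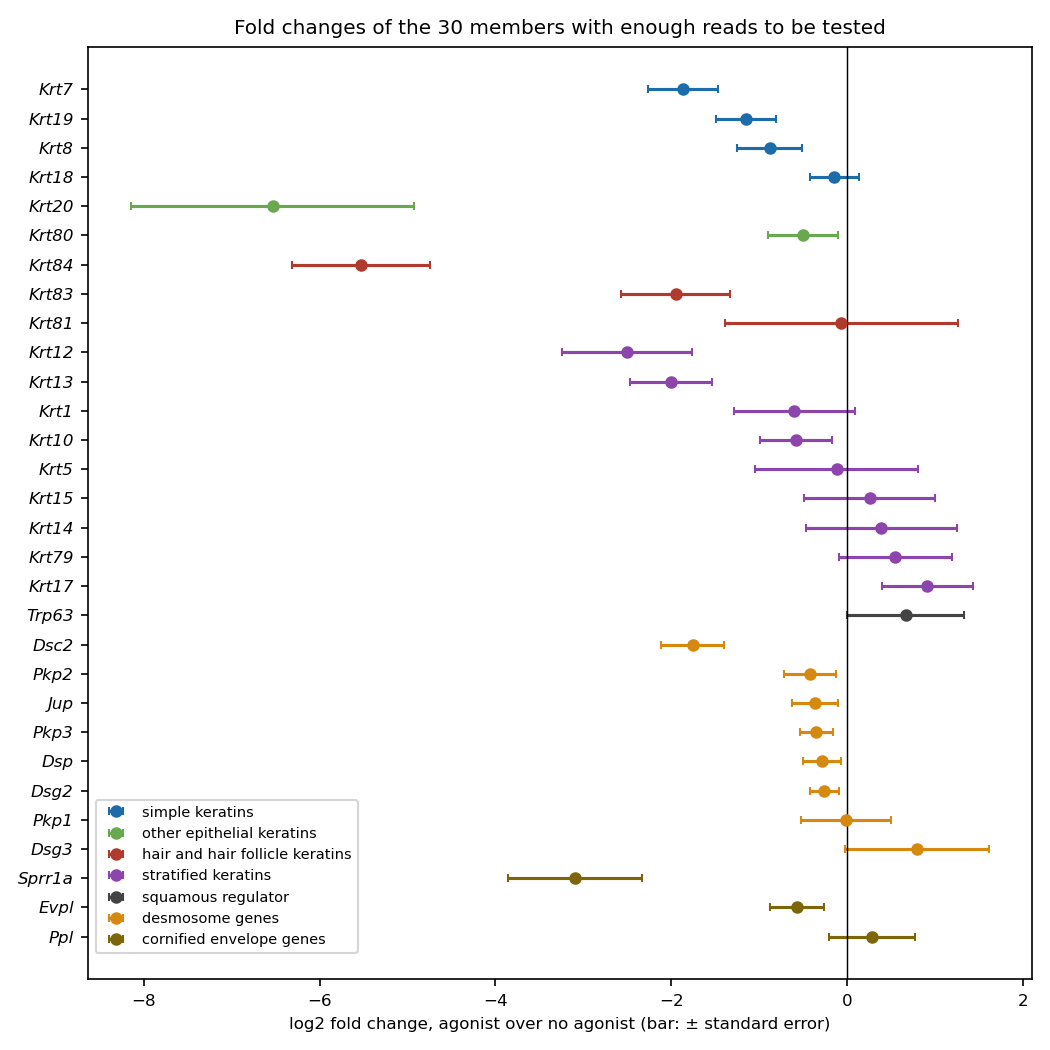
Log2 fold change, agonist over no agonist, of the 30 members with enough reads to be tested (x axis), 1 row per gene, coloured by class, with bars of ± 1 standard error from the edgeR fit. Krt20 and Krt84 lie farthest to the left at -6.53 and -5.53, the desmosome genes other than Dsc2 and Dsg3 lie between -0.42 and -0.01, and the basal genes have bars that cross or touch 0.

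The type II keratin genes lie in a cluster on chromosome 15 and the type I genes in a cluster on chromosome 11, with Krt18 next to Krt8 in the first. The promoters of 4 genes are shown because their values lie far apart in what follows: the hair keratin Krt84, the simple keratin Krt7, the suprabasal keratin Krt13 and the basal keratin Krt5. Each runs 5′ to 3′ over the 250 bases before the RefSeq start (GRCm38.p6), with capitals for matches to ATAAAA, to the AP-1 site TGANTCA and to the GC box GGGCGG on either strand. They are Krt84 at chr15:101532821-101533070 (minus strand), Krt7 at chr15:101412153-101412402 (plus), Krt13 at chr11:100121567-100121816 (minus) and Krt5 at chr15:101712906-101713155 (minus).
Krt84: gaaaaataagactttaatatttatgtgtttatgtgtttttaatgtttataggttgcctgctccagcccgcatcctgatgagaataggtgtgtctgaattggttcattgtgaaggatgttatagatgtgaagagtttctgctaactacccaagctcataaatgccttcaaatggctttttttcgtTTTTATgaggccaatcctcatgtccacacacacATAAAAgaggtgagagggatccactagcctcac
Krt7: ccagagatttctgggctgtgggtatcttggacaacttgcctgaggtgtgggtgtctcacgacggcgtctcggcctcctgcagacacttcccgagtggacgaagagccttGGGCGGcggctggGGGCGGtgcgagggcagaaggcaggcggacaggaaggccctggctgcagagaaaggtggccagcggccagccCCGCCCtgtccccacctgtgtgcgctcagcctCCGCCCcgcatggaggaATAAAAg
Krt13: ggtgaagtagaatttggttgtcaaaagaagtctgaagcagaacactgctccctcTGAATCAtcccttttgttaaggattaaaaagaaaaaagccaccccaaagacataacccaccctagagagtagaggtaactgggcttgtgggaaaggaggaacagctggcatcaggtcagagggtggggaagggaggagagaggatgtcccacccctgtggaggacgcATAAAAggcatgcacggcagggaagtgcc
Krt5: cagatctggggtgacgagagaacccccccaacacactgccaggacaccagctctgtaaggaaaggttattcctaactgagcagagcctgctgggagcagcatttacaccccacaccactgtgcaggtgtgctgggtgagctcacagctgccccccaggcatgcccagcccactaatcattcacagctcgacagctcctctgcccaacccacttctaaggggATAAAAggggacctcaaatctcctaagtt
The ATAAAA run begins 29 bases before the start in both Krt13 and Krt5, and 33 bases before it in Krt84, which has a further match at 66. Krt7 alone among these 4 has GC boxes, at 141, 128, 56 and 24 bases before its start, and its only ATAAAA begins at 7. Of the windows shown, that of Krt13 alone has an AP-1 match, at 196. RefSeq gives Krt13 a further start, 989 bases away, whose window is not shown and holds AP-1 matches at 183 and 34 and no ATAAAA. The RefSeq start of Krt7 lies 1360 bases from the start of the GENCODE gene, so the window may not be the one used in this tissue. The promoter set used here had entries for 41 of the 66 members, 43 windows in all. Of these, 22 held ATAAAA, 6 the AP-1 site and 5 the GC box. Over all 32851 mouse promoters of the same length the shares were 17% for ATAAAA, 6.75% for the AP-1 site and 32.7% for the GC box. The palindromic estrogen response element was in 0 of the 43 windows and in 0.0639% of all promoters. ATAAAA was added to the motifs after the sequences had been seen, and a match describes letters and not binding.

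Among the simple keratins, Krt7 and Krt19 were lower in every agonist library than in every no-agonist library, Krt8 was lower on average with overlapping groups, and Krt18 measured close to even. Krt7, a type II keratin of ducts and of the uterine lining, had 836, 491 and 366 CPM in the agonist libraries, against 1543, 2798 and 1816 CPM in the no-agonist libraries. The groups did not overlap, and the lowest no-agonist library stood well above the highest agonist library. The means of Krt7 were 565 ± 243 and 2053 ± 660.1 CPM (SD, n = 3 each, as for all means that follow), 3.64-fold lower with the agonist. Its log2 fold change was -1.86 ± 0.40 (SE), with an edgeR adjusted p = 0.26 over all genes and an unadjusted p = 0.00184, and DESeq2 gave an adjusted p = 3.65e-04.

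Krt19, a type I keratin without a tail domain, had 1046, 965 and 858 CPM in the agonist libraries, against 1268, 2757 and 2337 CPM in the no-agonist libraries. The 3 agonist libraries were close to each other, and no-agonist library 1 was nearer to them than to its own group. Krt19 was 2.22-fold lower (log2 fold change -1.15 ± 0.34, edgeR adjusted p = 0.364, DESeq2 adjusted p = 0.0312). Krt8, the general type II partner of Krt18, had 1210, 1551 and 898 CPM with the agonist, against 1373, 2954 and 2393 CPM without it. Agonist library 2 lay above no-agonist library 1, so the groups overlapped. The log2 fold change of Krt8 was -0.88 ± 0.37, with an edgeR adjusted p = 0.53 and a DESeq2 adjusted p = 0.262. Its counts are uncertain, since 29.7% of its 50-base stretches also occur in other genes, most of them in the pseudogene Krt8-ps. Krt8-ps had 14007 counts in the agonist group beside 49594 of Krt8, and 19691 in the no-agonist group beside 78206 of Krt8.

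Krt18, the type I partner of Krt8, had 758, 654 and 679 CPM in the agonist libraries, against 583, 1048 and 678 CPM in the no-agonist libraries. The agonist values lay inside the no-agonist range. Its log2 fold change was -0.14 ± 0.28 (edgeR adjusted p = 0.921), and its sign turned to 0.032 with library totals alone and to 0.15 without no-agonist library 2.

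**Figure D2:**
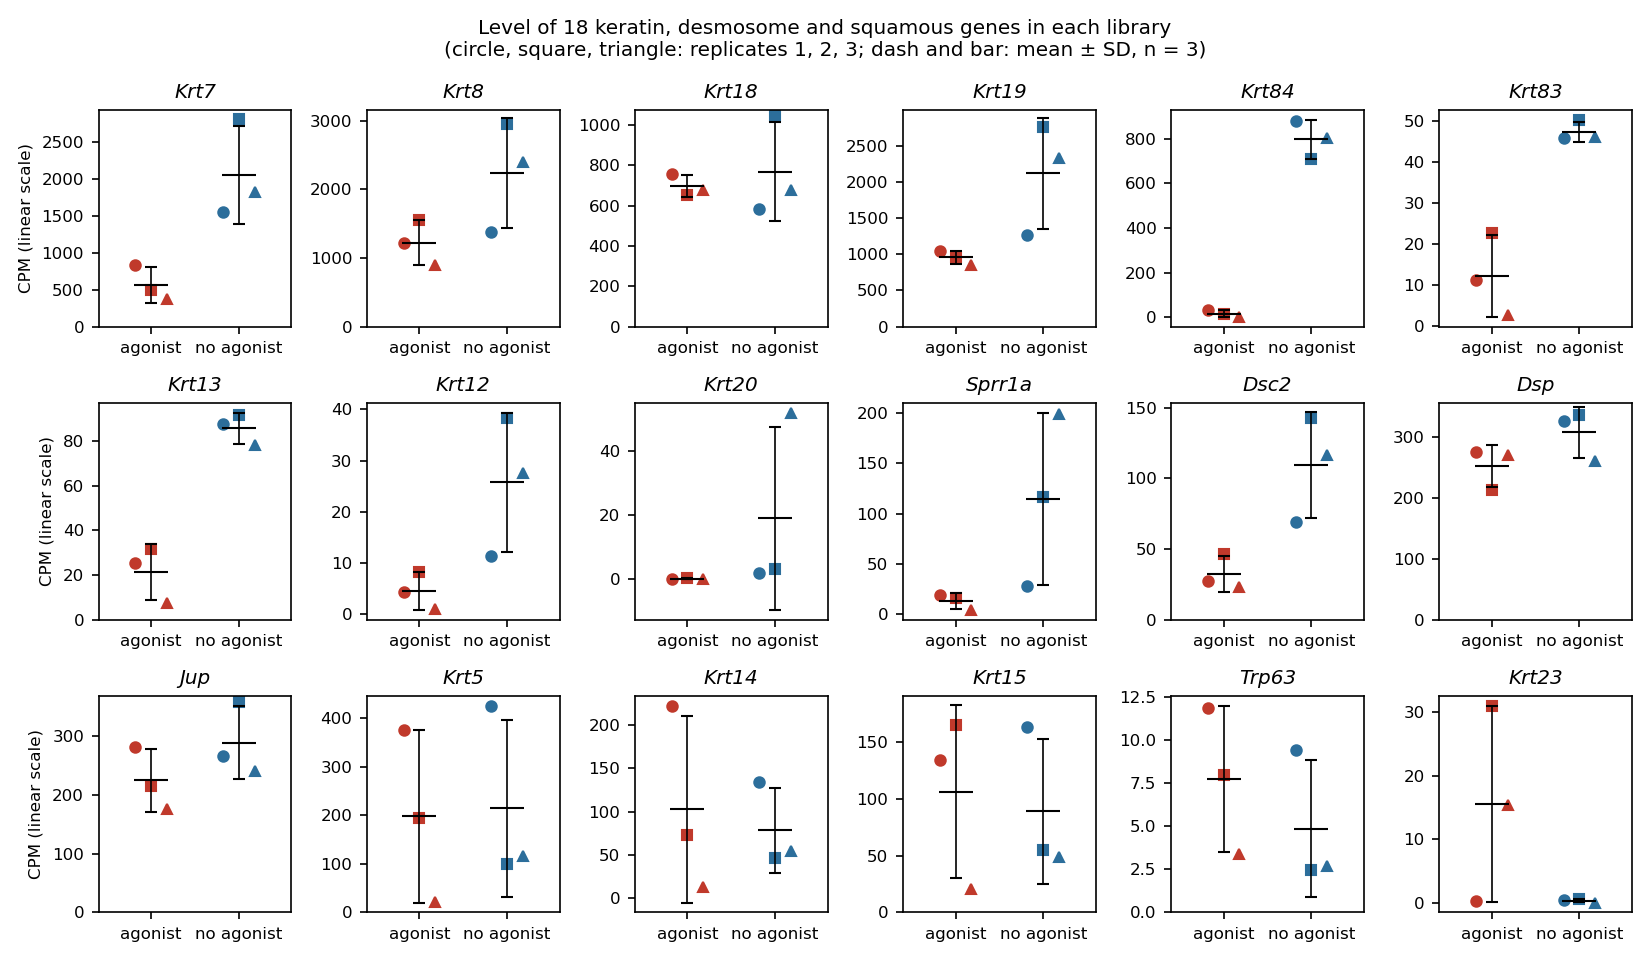
Level in CPM (y axis, linear scale, a scale per gene) of 18 members in each library, agonist at the left and no agonist at the right of each panel, with symbols for replicates 1 to 3 and a dash and bar for mean ± SD (n = 3). The groups stand apart for Krt7, Krt19, Krt84, Krt83, Krt13, Krt12, Krt20, Sprr1a and Dsc2, and overlap for Krt8, Krt18, Dsp, Jup, Krt5, Krt14, Krt15, Trp63 and Krt23.

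Ratios between keratins of the same library do not depend on how the library is scaled. The log2 ratio of Krt7 to Krt18 was 0.14, -0.41 and -0.89 in the agonist libraries, against 1.40, 1.42 and 1.42 in the no-agonist libraries. The 3 no-agonist libraries thus held Krt7 to Krt18 at almost the same ratio, and the agonist libraries lay below it and apart from each other. The log2 ratio of Krt19 to Krt18 was 0.46, 0.56 and 0.34 with the agonist, against 1.12, 1.40 and 1.78 without it. For Krt8 over Krt18 the log2 ratio was 0.67, 1.24 and 0.40 with the agonist, against 1.24, 1.50 and 1.82 without it, and the groups overlapped. These ratios carry no test of their own. The 12 epithelial markers other than keratins summed to 3651, 3314 and 3240 CPM in the agonist libraries. In the no-agonist libraries they summed to 4145, 4970 and 3416 CPM, so the summed groups overlapped. All 12 had reads, and 9 had a log2 fold change below 0. At an unadjusted p under 0.05, 4 were lower and 0 higher, against 5.09 and 4.17% of all genes tested. Wfdc2 gave the largest part of the sum, with 1307, 1250 and 1417 CPM with the agonist against 1212, 1623 and 682 CPM without it. With Wfdc2 taken out of the sum, every agonist library lay below every no-agonist library, so the overlap rested on this 1 gene. Set against the sum of all 12 within each library, Krt7 was still lower by a mean log2 difference of -1.62 and Krt19 by -0.80. Both had separated groups, while Krt18 differed by 0.18 and overlapped. For Krt19 the gap was narrow, from -1.78 in agonist library 2 to -1.71 in no-agonist library 1. These differences depend on the sum, and so on Wfdc2. With Wfdc2 taken out of the sum, Krt7 stayed lower with separated groups, while the groups of Krt19 overlapped. Krt18 then lay higher in every agonist library than in every no-agonist library, by a narrow gap.

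**Figure D3:**
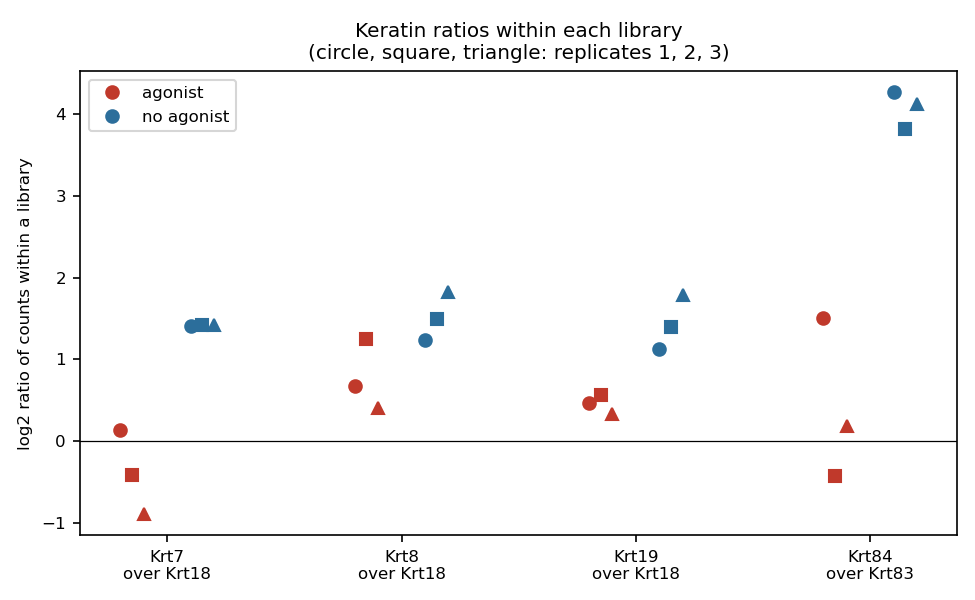
Log2 ratio of the counts of 2 keratins within the same library (y axis) for Krt7, Krt8 and Krt19 over Krt18 and for Krt84 over Krt83, agonist libraries at the left of each pair and no-agonist libraries at the right, symbols for replicates 1 to 3. The no-agonist points of Krt7 over Krt18 lie on top of each other near 1.4, and those of Krt84 over Krt83 lie between 3.82 and 4.26.

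Among the hair keratins, Krt84, a type II keratin encoded at chr15:101525026-101532820 on the minus strand, was far lower in every agonist library. Krt84 had 398, 247 and 41 counts in the agonist libraries, against 11661, 8133 and 8729 counts in the no-agonist libraries. That was 31.9, 16.8 and 3.15 CPM with the agonist, against 880.1, 708 and 802 CPM without it. Every no-agonist library held Krt84 at a high and similar level, and the agonist libraries were all low while differing among themselves. The means were 17.3 ± 14.4 and 796 ± 86.3 CPM, 46.1-fold lower with the agonist.

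The log2 fold change of Krt84 was -5.53 ± 0.79, with an edgeR adjusted p = 0.209 and an unadjusted p = 0.000134, which is place 9 among the p-values of all genes tested. Among the 12875 tested genes with a mean of at least 5 CPM it had the 7th lowest log2 fold change. DESeq2 gave Krt84 an adjusted p = 5.29e-16, and over all alternatives its adjusted p ran between 5.3e-16 and 0.526 while its log2 fold change stayed between -6.38 and -5.03. None of its 50-base stretches occurs in another annotated gene. Per kilobase of exon Krt84 averaged 6.55 in the agonist group and 302 in the no-agonist group. Of the summed keratin level per kilobase it made up 0.538, 0.298 and 0.0794% in the agonist libraries, against 11.9, 5.82 and 8.09% in the no-agonist libraries.

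Krt83, the neighbour of Krt84 in the cluster and also a type II hair keratin, had 11.2, 22.6 and 2.77 CPM in the agonist libraries, against 45.8, 50.1 and 45.9 CPM in the no-agonist libraries. The groups did not overlap, and agonist library 3 was the lowest for both genes. Krt83 was 3.87-fold lower (log2 fold change -1.95 ± 0.62, edgeR adjusted p = 0.401, DESeq2 adjusted p = 0.0409), and 22.1% of its 50-base stretches also occur in other genes, Krt86 foremost. Without agonist library 2 the log2 fold change of Krt83 was -2.76. The log2 ratio of Krt84 to Krt83 within a library was 1.51, -0.43 and 0.19 with the agonist, against 4.26, 3.82 and 4.13 without it, so the larger difference lay in Krt84. Krt81, which shares 37.7% of its stretches with other genes, Krt86 foremost, had 0, 26 and 10 counts in the agonist libraries, against 9, 23 and 0 counts in the no-agonist libraries. Its values overlapped fully.

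The other 18 hair and hair follicle keratins had too few reads to be tested. Of these, 7 had no read in any library, 4 had 1 to 9 counts over all 6 libraries and 7 had 10 to 47. All type I hair keratins of the set, the usual filament partners of Krt84, were in this group, with at most 37 counts for Krt36. The hair shaft and skin markers were likewise nearly absent: 9 of the 12 had no read, among them all 6 hair keratin-associated protein genes, and Pmel alone was tested. Pmel, a melanosome gene, had 7.06, 3.26 and 4.08 CPM with the agonist, against 23.5, 11.3 and 14.5 CPM without it (edgeR adjusted p = 0.304). The groups of Pmel did not overlap, and DESeq2 called Pmel lower. Pmel made up most of the sum of the marker list, which lay between 3.26 and 7.14 CPM in the agonist group. In the no-agonist group that sum lay between 11.3 and 23.6 CPM.

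Of the stratified keratins, 9 of 18 were tested, and Krt13 and Krt12 were lower with the agonist at an unadjusted p under 0.05 while the basal genes were not. Krt13, a type I keratin of internal squamous epithelia, had 25.3, 31.5 and 7.39 CPM in the agonist libraries, against 87.5, 91.6 and 78.2 CPM in the no-agonist libraries. The groups stood apart and the no-agonist libraries were close together. Krt13 was 4.01-fold lower (log2 fold change -2.0 ± 0.47, edgeR adjusted p = 0.3, DESeq2 adjusted p = 0.00333). Krt4, the type II partner of Krt13 in squamous epithelia, had 0, 3 and 4 counts with the agonist, against 1, 3 and 1 counts without it, too few to test.

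Krt12, known as a type I keratin of the cornea, had 4.25, 8.29 and 1.00 CPM in the agonist libraries, against 11.3, 38.3 and 27.6 CPM in the no-agonist libraries. The groups did not overlap, with a 5.70-fold lower mean in the agonist group (log2 fold change -2.50 ± 0.74, edgeR adjusted p = 0.364, DESeq2 adjusted p = 0.013). Without agonist library 2 the log2 fold change was -3.29. Its value is uncertain, since 54.4% of its exon bases are overlapped by A830036E02Rik on the opposite strand and the strand setting of the counting is not given in the sources used here. Krt13 and Krt12 each had lower levels also when set against the summed epithelial markers, with mean log2 differences of -1.96 and -2.52.

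The suprabasal keratins of the epidermis, Krt1 and Krt10, were scarce. Krt10, the type I keratin of the spinous layer, had 4.65, 5.57 and 8.08 CPM with the agonist, against 8.30, 5.92 and 13.1 CPM without it (log2 fold change -0.58 ± 0.41, edgeR adjusted p = 0.732). Krt1, its type II partner, had 2.33, 0.543 and 0.846 CPM with the agonist, against 1.81, 0.870 and 2.94 CPM without it. Both genes overlapped between the groups. Krt17, a type I keratin of injured and appendage epithelium, had 9.47, 6.11 and 3.77 CPM in the agonist libraries, against 3.02, 1.91 and 5.33 CPM in the no-agonist libraries, and also overlapped (log2 fold change 0.91 ± 0.52, edgeR adjusted p = 0.655).

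The basal genes followed single libraries and not the groups. Krt5, the type II keratin of basal cells, had 376, 195 and 20.9 CPM in the agonist libraries, against 425, 99.6 and 117 CPM in the no-agonist libraries. Krt14, its type I partner, had 222, 72.5 and 13.2 CPM with the agonist, against 134, 46.5 and 53.9 CPM without it. Library 1 of each group was high for both genes, and agonist library 3 was the lowest of the 6. Krt15, a further type I keratin of basal cells, had 134, 165 and 20.5 CPM with the agonist, against 163, 54.9 and 49.1 CPM without it. Trp63, the regulator of basal squamous cells, had 11.9, 7.95 and 3.39 CPM with the agonist, against 9.43, 2.44 and 2.66 CPM without it. Here too library 1 was the highest in each group, although the lowest value lay in no-agonist library 2.

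Between the highest and the lowest library of the agonist group the ratio was 18.1 for Krt5, 16.8 for Krt14, 8.05 for Krt15 and 3.51 for Trp63. In the no-agonist group the same ratio was 4.27 for Krt5, 2.89 for Krt14, 3.31 for Krt15 and 3.87 for Trp63. The log2 fold changes were -0.12 ± 0.93 for Krt5, 0.39 ± 0.86 for Krt14, 0.26 ± 0.74 for Krt15 and 0.67 ± 0.67 for Trp63, with edgeR adjusted p-values from 0.824 to 0.99. The sign of Krt5 turned without agonist library 3 (0.42) or no-agonist library 1 (0.87), and that of Krt14 without agonist library 1 (-0.85) or with limma-voom (-0.23). The sign of Krt15 turned without agonist library 2 (-0.21) or no-agonist library 3 (-0.026). Col17a1, a hemidesmosome collagen outside the set that basal cells carry, had 60.9, 25.7 and 2.77 CPM with the agonist, against 53.9, 11.5 and 11.1 CPM without it, the same highest and lowest library as Krt14.

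The rest of the epithelial keratins were the intestinal keratin Krt20, its neighbour Krt23, Krt80 and Krt222. Krt20 had 2, 6 and 0 counts in the agonist libraries, against 27, 36 and 566 counts in the no-agonist libraries. It passed the filter on low counts only through the no-agonist group, and no-agonist library 3 carried most of its reads. Its log2 fold change was -6.53 ± 1.61 (edgeR adjusted p = 0.314), it was -3.66 without no-agonist library 3, and DESeq2 gave no adjusted p. Krt23, the next gene along chromosome 11 and a type I keratin, ran the other way in part, with 4, 456 and 201 counts in the agonist libraries against 7, 7 and 1 counts in the no-agonist libraries. Agonist library 1 was as low as the no-agonist libraries, so the groups overlapped. Krt23 failed the filter of the edgeR fit, and DESeq2, which kept it, called it higher (adjusted p = 0.0293). Krt80, a type II keratin of many epithelia, had 14.3, 9.44 and 27.7 CPM with the agonist, against 27.3, 26.0 and 19.5 CPM without it, and overlapped. Krt222 had 21 counts in all.

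**Figure D4:**
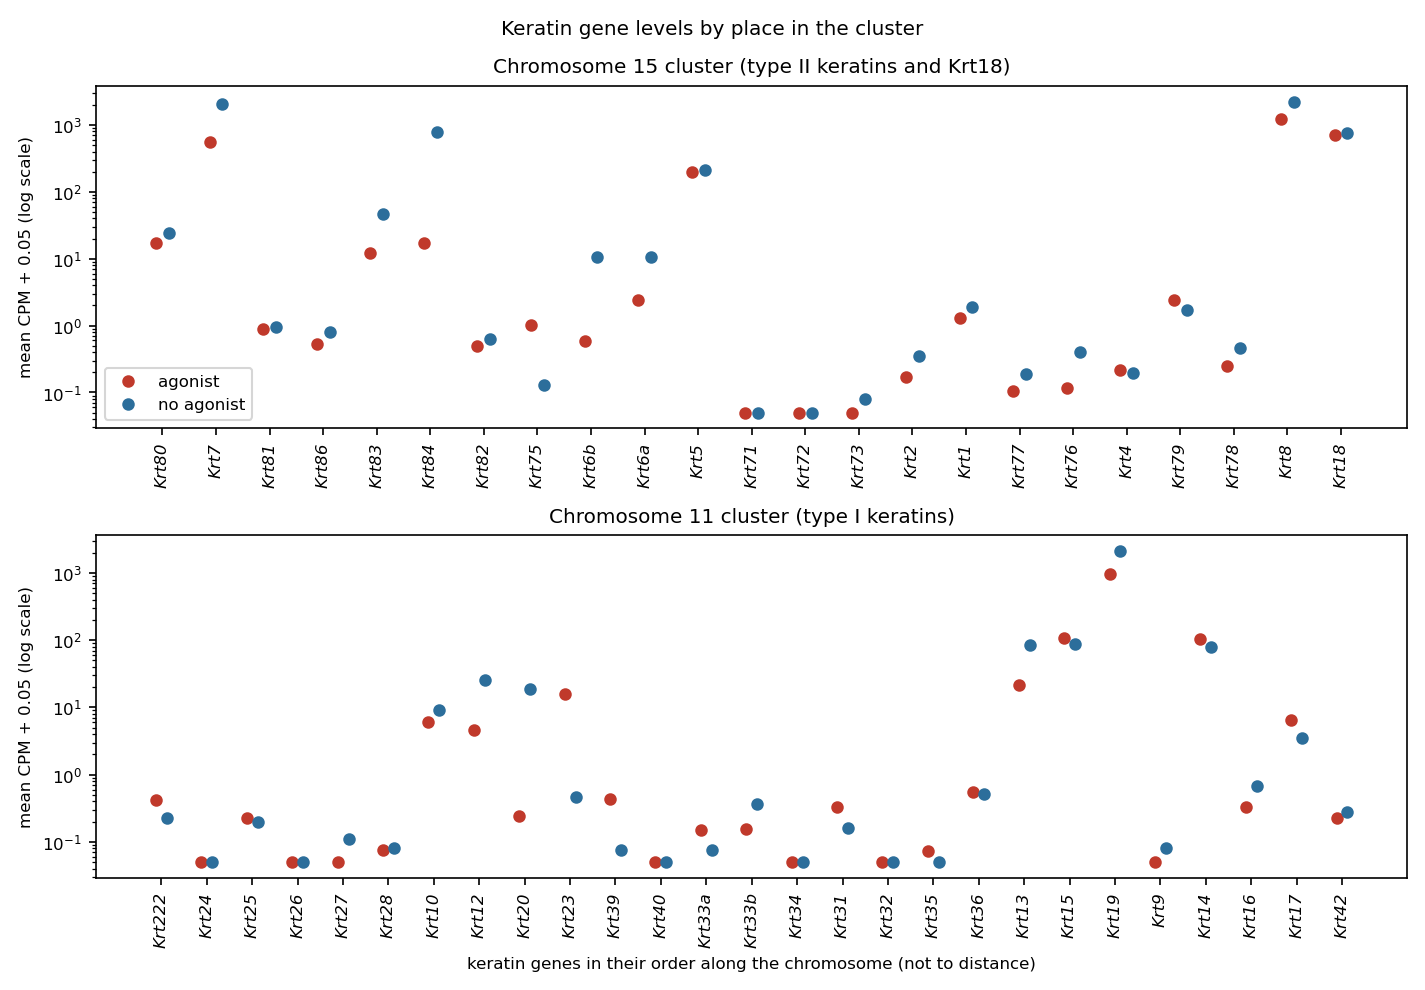
Mean level in each group (y axis, CPM + 0.05, log scale) of the protein-coding keratin genes in their order along chromosome 15 (upper) and chromosome 11 (lower), spaced evenly and not by distance, agonist drawn to the left of no agonist; Krt6a, Krt6b, Krt33a and Krt33b are outside the set. Krt84 and Krt83 are neighbours, as are Krt12 and Krt20, with Krt23 next to Krt20 and higher on average in the agonist group, while Krt5 and Krt18 have nearly equal means.

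Summed over a class, the 4 simple keratins reached 3850, 3662 and 2802 CPM in the agonist libraries, against 4768, 9557 and 7225 CPM in the no-agonist libraries. The stratified keratins reached 782, 490 and 77.0 CPM with the agonist, against 839, 342 and 352 CPM without it. The hair and hair follicle keratins reached 47.0, 43.7 and 10.1 CPM with the agonist, against 929, 763 and 849 CPM without it. Simple and hair keratins thus stood apart between the groups and stratified keratins overlapped. The difference of the mean log2 sums was -1.02 for simple keratins, -4.94 for hair keratins and -0.59 for stratified keratins, beside pooled SDs between libraries of 0.40, 0.89 and 1.35 in that order. Without Krt84 the hair keratins still summed to 15.1, 27.0 and 6.92 CPM with the agonist, against 48.7, 55.2 and 47.5 CPM without it.

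Per kilobase of exon, simple keratins made up 81.3, 86.1 and 96.1% of the keratin level in the agonist libraries, against 71.8, 89.5 and 85.6% in the no-agonist libraries. The ratio of simple keratins to stratified and hair keratins together, per kilobase, was 4.36, 6.71 and 32.1 with the agonist, against 2.56, 8.65 and 6.29 without it. The groups overlapped in both measures, and agonist library 3, where the basal genes were lowest, held the highest ratio. Hair keratins made up 0.871, 0.977 and 0.332% with the agonist, against 12.8, 6.47 and 8.78% without it. The ratio of type II to type I keratins per kilobase was 0.705, 0.840 and 0.541 with the agonist, against 1.12, 0.959 and 0.989 without it, with no overlap. Krt7 and Krt84, which had the lowest log2 fold changes of the simple and the hair class, are both type II. Krt84 gave 333, 268 and 304 per kilobase of the type II sums of 1479, 2253 and 1866 in the no-agonist libraries. With the agonist Krt84 gave 12.1, 6.35 and 1.19 of 931, 974 and 529. The type I sums per kilobase were 1319, 1160 and 977 with the agonist, against 1320, 2351 and 1887 without it. With Krt84 taken out, the ratio in agonist library 2 lay slightly above that in no-agonist library 3. The gap between the groups thus rested on this 1 gene.

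**Figure D5:**
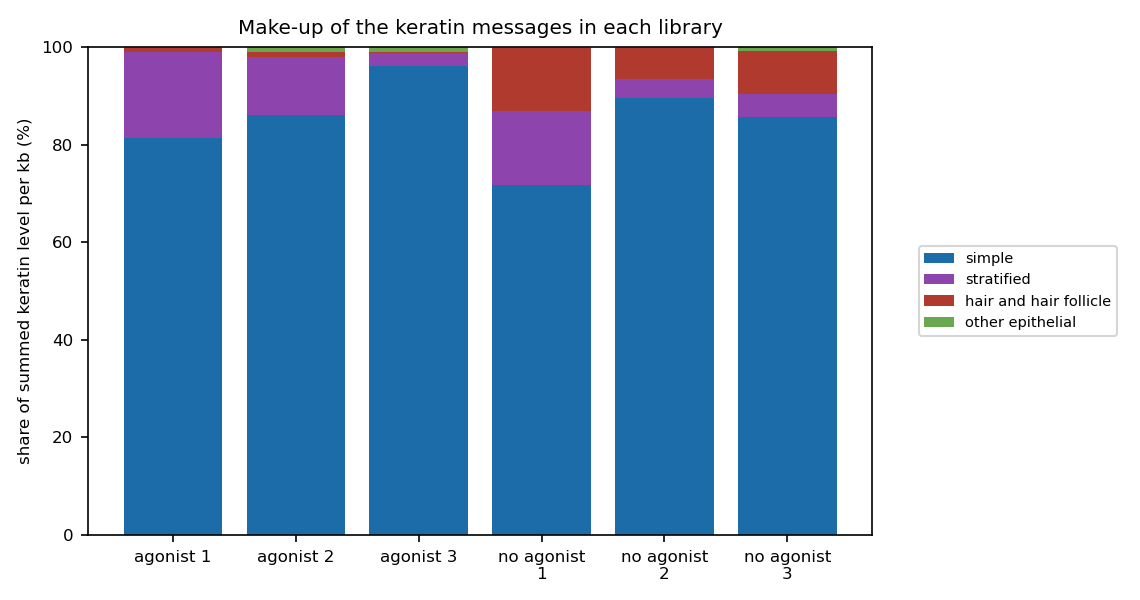
Share of the summed keratin level per kilobase of exon (y axis, %) held by simple, stratified, hair and other epithelial keratins in each library (x axis, agonist libraries first). The hair class is visible as a band of 6.47 to 12.8% in the no-agonist libraries and is under 1% in the agonist libraries, and stratified keratins are largest in library 1 of each group, at 17.8% with the agonist and 15.2% without it.

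Of the desmosome genes, 8 of 11 were tested and 7 of these had a log2 fold change below 0, with a median of -0.32. Over all genes tested 47.8% lay below 0, with a median of 0.018. Among the 12 epithelial markers other than keratins 9 lay below 0, with a median of -0.29. Dsc2 alone of the desmosome genes was lower at an unadjusted p under 0.05. Dsc2, the desmocollin of simple epithelia and a cadherin of the junction, had 27.6, 46.7 and 22.7 CPM in the agonist libraries, against 68.8, 143 and 116 CPM in the no-agonist libraries. The groups stood apart. The means of Dsc2 were 32.3 ± 12.7 and 109 ± 37.5 CPM, 3.38-fold lower with the agonist. Its log2 fold change was -1.76 ± 0.36, with an edgeR adjusted p = 0.254 and a DESeq2 adjusted p = 0.00156.

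Dsg2, the desmoglein that is the partner cadherin of Dsc2 in simple epithelia, had 74.7, 80.3 and 81.2 CPM in the agonist libraries, against 88.9, 90.2 and 103 CPM in the no-agonist libraries. Its groups also stood apart, at a much smaller distance (log2 fold change -0.26 ± 0.17, edgeR adjusted p = 0.704). In the cytoplasmic plaque, desmoplakin, Dsp, which anchors the keratin filaments, had 275, 213 and 271 CPM with the agonist, against 327, 337 and 261 CPM without it. Plakoglobin, Jup, which binds the cadherin tails, had 283, 215 and 177 CPM with the agonist, against 266, 359 and 242 CPM without it. Both overlapped, with log2 fold changes of -0.28 ± 0.21 for Dsp and -0.36 ± 0.26 for Jup and edgeR adjusted p-values of 0.748 and 0.738. Relative to the summed epithelial markers of the same library Dsp differed by -0.0035 and Jup by -0.086 on the log2 scale, against -1.48 for Dsc2. These differences also depend on Wfdc2. With it taken out of the sum, Dsp and Jup were higher on average with the agonist and Dsc2 stayed lower.

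The plakophilins link the cadherins to desmoplakin. Pkp3 had 68.8, 57.1 and 51.2 CPM in the agonist libraries, against 69.3, 80.5 and 75.4 CPM in the no-agonist libraries, separated by a narrow gap (log2 fold change -0.35 ± 0.18, edgeR adjusted p = 0.63). Pkp2, the plakophilin of simple epithelia, had 43.1, 31.9 and 40.1 CPM with the agonist, against 32.1, 52.3 and 69.6 CPM without it. Pkp1, that of stratified epithelia, had 9.79, 5.23 and 3.00 CPM with the agonist, against 8.60, 5.22 and 4.22 CPM without it. Pkp2 and Pkp1 overlapped. The squamous cadherins were scarce: Dsg3 averaged 1.78 ± 1.50 CPM with the agonist and 1.01 ± 0.68 CPM without it, Dsc3 had 33 counts in all, Dsc1 had 1 and Dsg1a had 0, which allows up to 3 counts in a library, 0.204 to 0.276 CPM. In sum the desmosome genes reached 786, 651 and 647 CPM with the agonist, against 863, 1068 and 872 CPM without it.

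Of the cornified envelope genes, 3 of 7 were tested. Sprr1a, a small proline-rich protein that is cross-linked into the envelope and is also made by simple epithelia under stress, had 19.4, 16.0 and 4.77 CPM in the agonist libraries, against 28, 117 and 199 CPM in the no-agonist libraries. The groups did not overlap, but no-agonist library 1 lay nearer to the agonist libraries than to its own group. The means of Sprr1a were 13.4 ± 7.67 and 115 ± 85.4 CPM, 8.55-fold lower with the agonist (log2 fold change -3.09 ± 0.76, edgeR adjusted p = 0.314, DESeq2 adjusted p = 4.78e-04), and the log2 fold change was -2.43 without no-agonist library 3. Envoplakin, Evpl, had 57.2, 38.9 and 65.3 CPM with the agonist, against 104, 84.1 and 52.0 CPM without it. Periplakin, Ppl, its partner, had 38.7, 26.1 and 106 CPM with the agonist, against 58.6, 42.3 and 38.5 CPM without it. The groups overlapped for both, and the log2 fold change of Ppl, 0.29 ± 0.49, turned to -0.52 without agonist library 3.

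The late envelope proteins were at the edge of detection. Involucrin, Ivl, had 18, 10 and 4 counts with the agonist, against 6, 4 and 0 counts without it. Loricrin, Lor, had 6, 19 and 14 counts with the agonist, against 7, 4 and 3 counts without it. The cross-linking enzyme Tgm1 had 20, 3 and 6 counts with the agonist, against 9, 9 and 35 counts without it, and Sprr1b had no read. These genes were too low to be tested by edgeR, and none was called by DESeq2.

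Further genes of the same structures were counted from lists of their known members, to be read beside 5.09% lower and 4.17% higher at an unadjusted p under 0.05 and a median log2 fold change of 0.018 over all genes tested. Of 9 hemidesmosome and anchoring genes, which hold epithelium to its basement membrane, all were tested, 5 were lower and 0 higher at an unadjusted p under 0.05, and the median log2 fold change was -0.75. Itgb4, an integrin chain of the hemidesmosome, was among them, with 180.0, 107 and 144 CPM in the agonist libraries against 256, 315 and 297 CPM in the no-agonist libraries (edgeR adjusted p = 0.304). The groups of Itgb4 did not overlap, while those of Col17a1 did. Of 10 adherens junction genes in the table, 3 were lower (Ctnna1, Pvrl4 and Vcl) and 0 higher, with a median of -0.29, and the cadherin Cdh1 had an edgeR adjusted p = 0.715.

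Of 5 further desmosome genes 2 were tested, Perp and Pkp4, and neither reached an unadjusted p under 0.05. Of 30 further genes of the cornified envelope and late differentiation 9 had no read and 6 were tested, with 3 lower (Sfn, Calml3 and Tgm5) and 0 higher. The keratins whose symbol carries a letter gave 2 tested genes, and Krt6b, a type II keratin of activated squamous cells, had 1.20, 0.407 and 0 CPM with the agonist, against 2.49, 3.74 and 25.3 CPM without it (edgeR adjusted p = 0.371). Krt6b passed the filter on low counts only through the no-agonist group. No-agonist library 3 was the highest for Krt6b, as for Krt20. Among 16 tested transcription factors of epithelia and squamous cells, 3 were lower (Klf4, Elf3 and Ovol2) and 2 higher, with a median of 0.13. Of 10 tested intermediate filament and linker genes other than keratins, 1 was lower, Lmna, and 0 were higher.

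Markers of other cells also differed between libraries, with the same shares of 5.09% lower and 4.17% higher over all genes tested as the background. The 10 smooth muscle markers all had log2 fold changes below 0, 0 at an unadjusted p under 0.05, and summed to 13091, 3635 and 4169 CPM in the agonist libraries, against 9336, 8534 and 22135 CPM in the no-agonist libraries. Agonist library 1 and no-agonist library 3 were the highest. Of the 5 tested gland markers 2 were higher and 0 lower, led by Cxcl15, a gland product, at 1.36, 82.2 and 69.8 CPM with the agonist against 0.755, 1.04 and 0 CPM without it. Cxcl15 passed the filter on low counts only through the agonist group. The libraries with high Cxcl15, agonist 2 and 3, were those with high Krt23. Prom1, the gland marker with the highest mean, had 341, 450 and 114 CPM with the agonist, against 234, 485 and 876 CPM without it. Its log2 fold change was -0.82, that of Foxa2 was 0.067, and the groups of both overlapped. The gland markers summed to means of 431 ± 182 CPM with the agonist and 563 ± 320 CPM without it, and the sums also overlapped. The 8 stromal and 6 mesothelial markers had 0 at an unadjusted p under 0.05, the 5 endothelial and 5 immune markers had 2 higher each, and 1 of 3 oviduct markers was higher, Ovgp1. Of 6 embryo and trophoblast markers 5 had no read. The part of these cells in the keratin and desmosome values was not tested.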

How the data were processed

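Per the labels' protocols, single-end libraries of total RNA were prepared with an Ion Total RNA-Seq Kit and run on Proton sequencers. The authors deposited whole-number read counts per gene symbol, counted with HTSeq 0.6.1 on mm10 (GRCm38), per the submitters' processing notes. The aligner, the annotation and the strand setting were not given in the sources used here. All gene lists, the 66 genes included, were chosen with earlier results of these data known.

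Counts were filtered with filterByExpr at its defaults, scaled by TMM factors and tested by edgeR's quasi-likelihood F-test (edgeR 4.0.16, R 4.3.3), 3 agonist against 3 no-agonist libraries, two-sided, without covariates. P-values were adjusted by the Benjamini-Hochberg method over the 16581 genes tested, with a threshold of 0.05. The common biological coefficient of variation was 0.375. DESeq2 1.42.0, limma-voom (limma 3.58.1), other scalings and filters, and leaving out libraries were alternatives. CPM are counts over effective library sizes, and the standard error is the log2 fold change over the root of F. A count of 0 allows up to 3 counts. Exon lengths, coordinates and shared stretches of 50 bases came from GENCODE M21, which held all 66 symbols. The analysis was tested on simulated counts. Values in every library were to be given for Krt7, Krt8, Krt18, Krt19, Krt5, Krt14, Krt4, Krt13, Krt1, Krt10, Trp63, Dsp, Jup, Ivl and Lor, for other tested members averaging 20 CPM or more, and for members at an unadjusted p under 0.05 averaging 1 CPM or more. Krt17, Krt23, Tgm1, Pkp1, Krt81 and the genes outside the set were added or narrowed after their values were seen.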

Additional observations from a re-analysis of the deposited data

How the results depend on the processing

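Of the log2 fold changes of the 30 tested members under 15 alternatives, 407 kept their direction and side of the threshold, 15 newly passed it and 26 turned sign. Those that newly passed, all lower with the agonist and all under DESeq2, the edgeR likelihood ratio test or no filter, were values of Krt84, Krt7, Krt13, Krt12, Krt19, Krt83, Krt20, Sprr1a and Dsc2. Genes called over the whole table, 0 in the fit reported, numbered 166 higher and 255 lower with DESeq2, 104 and 164 with the likelihood ratio test, and 8 and 28 with no filter beyond 1 read. Of the 66 genes DESeq2 called 1 higher and 8 lower, the likelihood ratio test 6 lower, and no filter 1 lower. Leaving out 1 library gave 0 to 1 genes called lower, none of them a member. Leaving out both libraries with the highest 18S share, an alternative chosen after seeing the data, gave 7 genes called lower and 7 members lower at an unadjusted p under 0.05, against 10, while the genes lower over the whole table numbered 1187 of 16838, against 844 of 16581. Members higher at an unadjusted p under 0.05 numbered 0 in the fit reported, 1 with no filter, with DESeq2 or without both 18S-rich libraries, and 0 to 2 when 1 library was left out.

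The sign turned for Pkp1 (0.12 with library totals, 0.040 with upper-quartile factors), Krt81 (0.11) and Krt18 (0.032) with library totals, and Krt14 (-0.23) with limma-voom. Without both 18S-rich libraries it turned for Dsg3 (-0.53), Krt81 (1.83), Krt18 (0.088), Trp63 (-0.086), Krt14 (-1.12) and Krt15 (-0.18). Leaving out 1 library gave ranges of -0.52 to 0.63 for Ppl, -0.082 to 1.28 for Dsg3, -0.54 to 0.34 for Pkp1, -1.19 to 1.26 for Krt81, -0.31 to 0.15 for Krt18, -0.85 to 1.03 for Krt14, -0.21 to 1.03 for Krt15, -0.97 to 0.87 for Krt5 and -0.11 to 1.04 for Krt79. The cause was not tested. The stratified sum differed by -1.25 to 0.41, the simple sum by -1.29 to -0.78 and the hair sum by -5.32 to -4.22. Leaving out 1 library moved the fold by over 1.5 times also for Krt20 (-7.74 to -3.66), Krt84 (-6.30 to -5.03), Krt12 (-3.29 to -2.03), Krt83 (-2.76 to -1.48) and Sprr1a (-3.56 to -2.43), with the sign kept. Using the longest transcript in place of all exons, Krt7 per kilobase moved to 320 from 186, with hair keratins still at most 0.951% with the agonist and at least 5.93% without it. No paired analysis was possible because the labels share no replicate numbers between the groups. With 3 libraries a group, an exact permutation test of a single value could not go below p = 0.1. The 36 untested members had too few reads in too few libraries for the filter, and Krt23 among them had 676 counts, most of them in 2 libraries.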
